A study of Mus musculus with 6 samples.

Results

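The natriuretic peptide and guanylin genes described here are 9 mouse genes: Nppa, Nppb, Nppc, Npr1, Npr2, Npr3, Corin, Guca2a and Guca2b. They were taken by their symbols from an array of 25697 probes for 18138 gene symbols, on which each of the 9 genes had 1 probe. Nppa and Guca2a were included because they rose steeply in hSRY-ON lung, so their values are given as a description with no test. The other 7 genes belong to the same peptide systems. They are tested where their probes were detected on enough arrays.

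The arrays measured lung RNA of male FVB mice (FVB/N in the study's methods) at postnatal day 6, with 3 hSRY-OFF and 3 hSRY-ON mice and 1 Illumina BeadChip for each mouse. All carry, by the definition of their group, a single copy of the Signalox-hSRY transgene, in which the broadly active CAG promoter drives the red fluorescent protein DsRed2 until a Cre recombinase removes that segment. In hSRY-ON mice Cre protein from the egg of a Ddx4-Cre mother had recombined the transgene in the early embryo, and the CAG promoter then drives human SRY together with EGFP. The hSRY-ON mice chosen for the arrays had not inherited Ddx4-Cre itself. The study also describes littermates without the responder transgene as controls, so the transgene status of the hSRY-OFF mice rests on their label. The comparison asks which lung genes differ when human SRY, a transcription factor that directs testis formation, is active outside the gonad from early development. The study reports that hSRY-ON pups grew slowly, suckled little and had impaired alveolar development, with dying heart cells in some. Effects of SRY within the lung and of the poor state of the pups cannot be told apart here. The mothers and litters of the array mice are not given, so a litter difference between groups cannot be told apart either.

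Natriuretic peptides are hormones that lower blood pressure and salt load. Heart muscle is the main source of atrial (Nppa) and B-type (Nppb) natriuretic peptide, and in mice heart muscle also extends along the pulmonary veins into the lung. The peptides are cut from longer precursors, bind receptors that are themselves guanylyl cyclases, and raise cyclic GMP (cGMP) in vessels, kidney and lung. Guanylin (Guca2a) and uroguanylin (Guca2b) are made mainly by intestinal epithelium, and they act through another membrane guanylyl cyclase, Gucy2c, to move salt and water across epithelia.

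Every level below is a normalized log2 intensity of 1 probe, and a change is the mean of the hSRY-ON arrays minus the mean of the hSRY-OFF arrays. A probe is called detected on an array when its detection p was under 0.05, and a probe is called higher or lower when its Benjamini-Hochberg adjusted p from limma was under 0.05. Levels are compared between arrays and never between probes, because probes differ in brightness. The arrays had median raw intensities of 177.1 to 204.0 and between 13191 and 14134 detected probes. The lung label was borne out by the surfactant gene Sftpc, the alveolar type I gene Ager and the airway gene Scgb1a1, whose probes were detected on all 6 arrays. Probes for the lung markers Hopx, Rtkn2 and Kdr were not detected on any array. In whole lung, a change in the number of cells of a type and a change in RNA per cell cannot be told apart.

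The peptide hormones of the heart were both higher in hSRY-ON lung. The Nppa probe (ILMN_3161547) read 5.11, 5.33 and 6.94 on the hSRY-OFF arrays and 12.32, 12.39 and 9.31 on the hSRY-ON arrays. Each hSRY-ON array lay above each hSRY-OFF array, with 2.37 between the lowest hSRY-ON and the highest hSRY-OFF value, although hSRY-ON replicate 3 fell well below the other two. Before normalization the same arrays had intensities of 169, 170 and 296 against 4843, 5574 and 806. The group means were 5.79 ± 1.0 and 11.34 ± 1.76 (SD, n = 3 each), a difference of 5.55 or 46.8-fold. This was the largest rise among the 13841 tested probes, and the probe was detected on 2 of 3 hSRY-OFF arrays. The gap between the brightest and the dimmest hSRY-ON array was 6.92-fold in raw intensity. The fold is not exact, because the hSRY-OFF values lay at or near background: the difference was 3.72 without background correction and 6.55 without hSRY-ON replicate 3.

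Nppb encodes B-type natriuretic peptide, which heart muscle releases when it is stretched. Its probe (ILMN_2726837) read 4.78, 4.72 and 4.78 on the hSRY-OFF arrays, where it was not detected, and 8.48, 7.14 and 6.45 on the hSRY-ON arrays, where it was detected on all 3. The groups did not overlap, and the means were 4.76 ± 0.04 and 7.36 ± 1.03 (SD, n = 3 each). With this background correction the hSRY-ON mean was at least 4.18-fold higher, a bound set by the dimmest detected probes of the hSRY-OFF arrays. The fitted change was smaller, at 0.94, without background correction and 1.73 with an offset of 50. The probe passed the detection filter only through the hSRY-ON arrays where it was high, so its limma adjusted p of 0.0086 depended on that filter. It was 0.0142 when all probes were tested with no filter. Fits that left out an hSRY-ON array, or that required detection on all 6 arrays, did not test the probe. Nppc, the gene of C-type natriuretic peptide, which acts locally on vessels and cartilage, was not detected on any array. Its values (ILMN_1220857) of 4.91, 4.85 and 4.79 in hSRY-OFF and 5.38, 4.96 and 5.20 in hSRY-ON lung lay at background, and it was not tested.

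**Figure D1:**
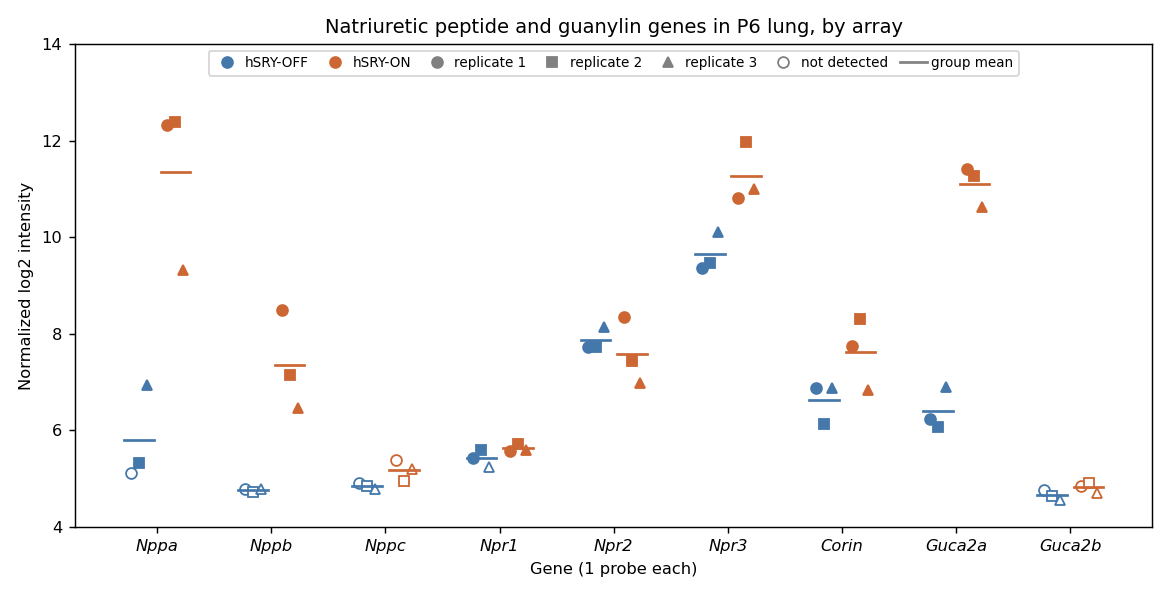
Normalized log2 intensity (vertical axis) of the probe of each gene (horizontal axis) on the 6 arrays. Blue marks hSRY-OFF and orange hSRY-ON, marker shapes are replicates 1 to 3, open markers are arrays without detection and lines are group means. The lowest hSRY-ON value of Nppa, Nppb, Npr2, Corin and Guca2a was that of replicate 3.

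Nppb and Nppa lie next to each other on chromosome 4, with 0 annotated genes between them in the RefSeq gene table, and both rose. Their proximal promoters are shown because both genes were higher in hSRY-ON lung. The sequences are the 250 bases before the annotated start in RefSeq (assembly GRCm38.p6), 5′ to 3′ on the + strand of both genes, at chr4:148000472-148000721 for Nppa and chr4:147985650-147985899 for Nppb. Capitals mark matches to AGATAA or TGATAA, forms of the site that GATA transcription factors bind, searched on both strands.
Nppa: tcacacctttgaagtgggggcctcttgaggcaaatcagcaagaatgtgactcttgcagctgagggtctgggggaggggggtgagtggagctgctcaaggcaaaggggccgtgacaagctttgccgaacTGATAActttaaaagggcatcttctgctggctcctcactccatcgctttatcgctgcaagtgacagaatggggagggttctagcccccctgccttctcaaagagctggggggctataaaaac
Nppb: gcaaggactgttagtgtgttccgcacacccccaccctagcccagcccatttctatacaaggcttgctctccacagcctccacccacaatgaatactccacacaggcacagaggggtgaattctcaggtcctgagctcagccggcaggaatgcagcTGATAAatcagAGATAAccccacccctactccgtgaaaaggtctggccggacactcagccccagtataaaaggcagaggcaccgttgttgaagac
The Nppa promoter held TGATAA, which begins 122 bases before the start, and the Nppb promoter held TGATAA and AGATAA, 95 and 84 bases before it. A match to either form was present in 16.6% of 32851 RefSeq mouse promoters cut to the same 250 bases. AACAAT and AACAAA, letters of the type that SRY and SOX proteins bind, had no match on either strand in these promoters, and 24.9% of all promoters held at least 1 of the 2. The motifs were searched with the results known, and a match is a description of letters, not of binding.

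Among the receptors, Npr3 was higher and the guanylyl cyclase receptors passed no test. Npr3 encodes the clearance receptor, which takes natriuretic peptides out of circulation and has no cyclase domain. Its probe (ILMN_3127391) read 9.36, 9.47 and 10.11 in hSRY-OFF and 10.80, 11.97 and 11.00 in hSRY-ON lung. The groups did not overlap, and the lowest hSRY-ON value was 0.69 above the highest hSRY-OFF value. The change was 1.61 with a standard error of 0.34 and a 95% confidence interval of 0.81 to 2.41, or 3.05-fold (limma adjusted p = 0.0149). Without hSRY-OFF replicate 1 or replicate 2 the change was 1.47 or 1.53, and the adjusted p from limma was 0.0614 or 0.0613. In those smaller fits the calls over all probes also fell, from 3728 to 1504 or 1621.

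Npr1 encodes the cyclase receptor of the atrial and B-type peptides. Its probe (ILMN_2746305) read 5.42, 5.60 and 5.24 in hSRY-OFF and 5.58, 5.71 and 5.59 in hSRY-ON lung, close to background, with detection on 2 of 3 and 3 of 3 arrays. Its change was 0.21 with a 95% confidence interval from -0.10 to 0.52 (limma adjusted p = 0.282). Npr2 encodes the cyclase receptor of C-type natriuretic peptide. Its probe (ILMN_2696026) read 7.72, 7.73 and 8.14 against 8.34, 7.43 and 6.98, so the hSRY-ON arrays lay on both sides of the hSRY-OFF arrays. The change of -0.28 had a 95% confidence interval from -1.06 to 0.51 (limma adjusted p = 0.569), and it was 0.02 without hSRY-ON replicate 3. Neither interval shows a lack of change.

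Corin encodes the membrane protease that cuts the precursor of atrial natriuretic peptide into its active form. Its probe (ILMN_1236136) read 6.88, 6.12 and 6.87 in hSRY-OFF and 7.74, 8.29 and 6.83 in hSRY-ON lung. Replicates 1 and 2 of hSRY-ON lay above all hSRY-OFF arrays and replicate 3 lay among them. The change was 0.997 with a standard error of 0.39 and a 95% confidence interval of 0.09 to 1.91, and it did not pass after adjustment (limma adjusted p = 0.0967). Without hSRY-ON replicate 3 it was 1.39 and passed (limma adjusted p = 0.0181). The 250 bases before the Corin start held AACAAA at 2 places, which begin 220 and 216 bases before it and overlap, while none of the other 8 promoters held either SRY-type motif.

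Guanylin and uroguanylin, neighbours in the genome like Nppa and Nppb, differed in detection. The Guca2a probe (ILMN_2635395) read 6.22, 6.07 and 6.90 on the hSRY-OFF arrays and 11.41, 11.27 and 10.62 on the hSRY-ON arrays. Every hSRY-ON array lay at least 3.72 above every hSRY-OFF array, and the 3 hSRY-ON mice lay within 0.79 of each other. Raw intensities were 215, 197 and 291 against 2620, 2622 and 1828. The means were 6.40 ± 0.44 and 11.10 ± 0.42 (SD, n = 3 each), a difference of 4.70 or 26.0-fold, the third largest rise among the tested probes. It was 3.29 without background correction. The probe was detected on all 6 arrays, so a low signal was present in hSRY-OFF lung as well. The Guca2b probe (ILMN_2744846) read 4.76, 4.65 and 4.55 against 4.85, 4.92 and 4.70, was not detected on any array and was not tested.

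The promoters of this pair are shown because 1 gene rose steeply while its neighbour was at background, with 0 annotated genes between them. They are the 250 bases before the start in RefSeq GRCm38.p6, 5′ to 3′ along each gene, at chr4:119637482-119637731 on the + strand for Guca2a and chr4:119658946-119659195 on the - strand for Guca2b. Capitals mark TTATCT, the form that AGATAA takes when read from the opposite strand.
Guca2a: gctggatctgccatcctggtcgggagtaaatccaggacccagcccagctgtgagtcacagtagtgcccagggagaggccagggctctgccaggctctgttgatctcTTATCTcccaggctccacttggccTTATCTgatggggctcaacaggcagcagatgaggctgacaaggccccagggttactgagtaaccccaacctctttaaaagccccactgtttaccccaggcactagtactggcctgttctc
Guca2b: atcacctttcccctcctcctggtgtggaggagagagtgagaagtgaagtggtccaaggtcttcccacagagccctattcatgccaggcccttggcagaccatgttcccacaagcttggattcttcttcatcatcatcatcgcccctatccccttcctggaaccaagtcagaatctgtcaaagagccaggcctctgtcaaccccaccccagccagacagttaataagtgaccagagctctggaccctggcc
Guca2a held the motif at 2 places on the opposite strand, which begin 144 and 120 bases before its start, and the Guca2b window held neither GATA form. Neither window held AACAAT or AACAAA.

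Of the 7 genes not chosen for their rise, 5 were tested, of which 2 (Nppb and Npr3) were higher and 0 were lower. Nppb was among the 2 only through its detection in hSRY-ON lung. Of all 13841 tested probes, 26.9% were called in either direction, 13.6% higher and 13.3% lower. Over all tested probes the median change was -0.03, and the 5th and 95th percentiles were -0.96 and 1.08. Npr3 ranked 246th and Corin 804th from the top, so the Corin change lay inside that range and the Npr3 change above it.

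**Figure D2:**
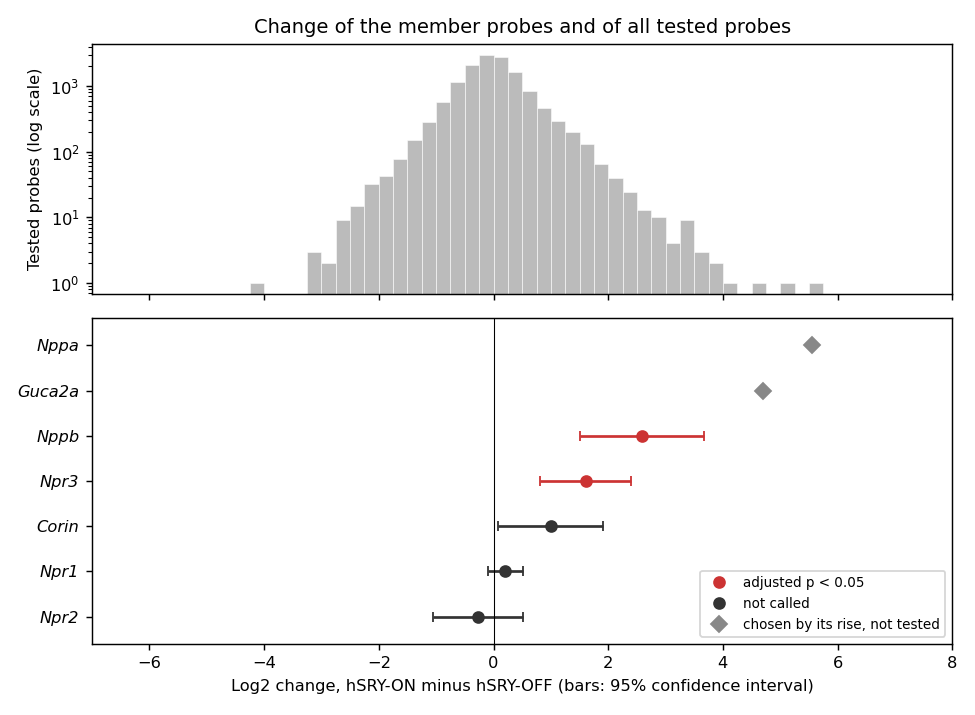
Upper panel, number of tested probes (log axis) by log2 change, hSRY-ON minus hSRY-OFF. Lower panel, the change of each tested gene on the same axis with its 95% confidence interval, where red marks adjusted p under 0.05 and grey diamonds mark Nppa (5.55) and Guca2a (4.70), which were chosen by their rise and carry no interval.

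The cGMP pathway list covered genes that make, sense or degrade cGMP, with some related genes such as Pde6d and Cftr. In it 2 genes were higher and 5 were lower. Of its 36 genes, 29 were on the array, 12 were not detected on any array and 16 were tested with 22 probes. Among these probes 2 were higher and 9 were lower, with a median change of -0.28, where 13.6% of all tested probes were higher and 13.3% lower. Of the 9 lower probes, 6 were the 3 probes each of Gucy1a1 and Nos3. The lower probes belonged to 5 genes, Gucy1a1, Gucy1b1, Nos3, Pde5a and Pde6d. The higher probes were those of Prkg1 and Prkg2. Without hSRY-OFF replicate 1, or without replicate 2, 4 of the pathway's probes were called.

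Gucy1a1 and Gucy1b1 encode the subunits of soluble guanylyl cyclase, the nitric oxide receptor. All 3 Gucy1a1 probes were lower, and the one with the largest fall read 10.97, 10.92 and 10.81 in hSRY-OFF and 9.46, 8.99 and 9.25 in hSRY-ON lung (change -1.67, limma adjusted p = 0.0011). The Gucy1b1 probe changed by -0.93 (limma adjusted p = 0.0147). It and Pde6d were named after their values were seen. Nos3, the nitric oxide synthase of endothelium, was lower with all 3 of its probes, by -1.04 to -1.12. Pde5a, the phosphodiesterase that breaks down cGMP in vascular smooth muscle, read 7.23, 6.74 and 6.81 against 5.40, 5.93 and 6.18 (change -1.09, limma adjusted p = 0.0157). Pde6d, a carrier of lipid-modified proteins, was lower with 1 of 3 tested probes (-0.61, limma adjusted p = 0.0210).

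In the same lungs, 3 of 5 tested probes of the endothelial markers were lower, and 0 were higher, where 13.3% of all tested probes were lower. Their summed intensity was 30146 to 32561 on hSRY-OFF arrays and 20109 to 22708 on hSRY-ON arrays, with Kdr not detected. The part of this shift in the values of Nos3 and of the cyclase subunits was not tested.

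The kinases that respond to cGMP went the other way. Prkg2, the kinase through which guanylin signalling reaches ion channels of the gut, read 7.74, 7.89 and 7.99 in hSRY-OFF and 8.73, 9.21 and 8.67 in hSRY-ON lung (change 0.999, limma adjusted p = 0.0081). Prkg1, the kinase of vascular smooth muscle, was close to background and read 5.30, 5.28 and 5.31 against 5.57, 5.77 and 5.82 (change 0.42, limma adjusted p = 0.0375). With median scaling, a replicate block or an adjusted p under 0.01, 1 probe of the list in place of 2 was higher. The same held without any single array other than hSRY-ON replicate 1. The other alternatives gave 2 to 5. Gucy2c, the receptor of guanylin, was not detected on any array. Cftr, the chloride channel at the end of that route, read 8.0, 8.27 and 8.51 against 8.93, 8.21 and 8.75, and the groups overlapped (change 0.37, limma adjusted p = 0.251).

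Genes that cut or degrade the peptides showed a single call. Of 8 genes, 7 were on the array and 5 were tested with 7 probes. Of all tested probes 13.6% were higher and 13.3% lower. Of these 7, 0 were higher and 1 was lower, with a median change of 0.10. The probe was that of Mme (neprilysin), which degrades natriuretic peptides and read 9.11, 9.13 and 8.96 against 8.63, 8.43 and 8.67 (change -0.49, limma adjusted p = 0.0276). Without hSRY-OFF replicate 1, hSRY-OFF replicate 2 or hSRY-ON replicate 2, 0 of these probes were called.

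Other vasoactive peptide systems were called at a share close to that of all tested probes (26.9%). Of 27 genes, 26 were on the array and 15 were tested with 20 probes, of which 4 were higher and 1 was lower, with a median change of -0.04. Edn1, which encodes the vasoconstrictor endothelin-1, read 10.15, 9.79 and 10.70 in hSRY-OFF and 12.12, 12.44 and 11.49 in hSRY-ON lung (change 1.80, limma adjusted p = 0.0076). Ramp3, which joins the receptor of adrenomedullin, was higher with all 3 of its probes, and the one with the largest change read 7.19, 7.01 and 6.77 against 8.99, 9.49 and 8.65 (change 2.05, limma adjusted p = 0.0020). Aplnr, the apelin receptor, read 11.41, 11.76 and 11.32 against 9.93, 9.67 and 10.00 (change -1.63, limma adjusted p = 0.0015).

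**Figure D3:**
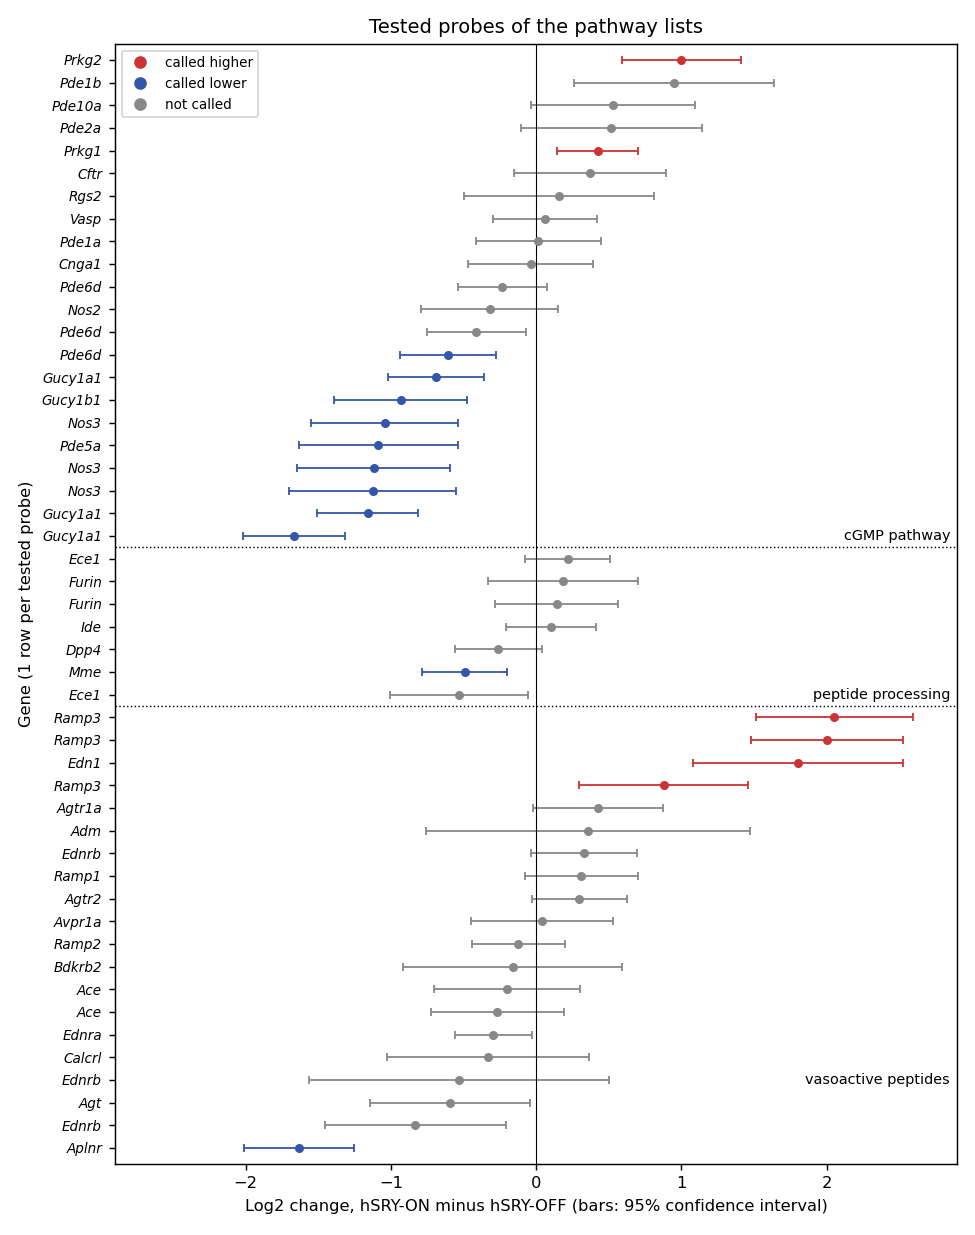
Log2 change, hSRY-ON minus hSRY-OFF (horizontal axis), of each tested probe of the cGMP pathway, peptide processing and vasoactive peptide lists, with 95% confidence intervals. Red marks probes called higher, blue probes called lower and grey probes not called, and the cGMP list holds 2 red and 9 blue of 22 probes.

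Heart muscle genes were examined because Nppa and Nppb are expressed chiefly there, and they did not share a direction. Of 28 genes of atrial, ventricular or general heart muscle, 27 were on the array and 21 were tested with 26 probes. Of these probes 5 were higher and 7 were lower, with a median change of -0.17. Among all tested probes 13.6% were higher and 13.3% lower. Bmp10, Irx4, Ryr2 and Pln were not detected on any array. Without hSRY-OFF replicate 2 the called probes numbered 7 in place of 12.

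Of the 4 atrial probes tested, 0 were higher and 2 were lower. Myl4, an atrial myosin light chain, read 12.24, 12.48 and 12.64 in hSRY-OFF and 10.49, 9.94 and 11.12 in hSRY-ON lung (change -1.94, limma adjusted p = 0.0050). Sln, which regulates the calcium pump of atrial muscle, changed by -0.88 (limma adjusted p = 0.0425). Myl7, another atrial light chain, read 9.54, 9.71 and 9.89 against 9.53, 8.10 and 8.55 and did not pass (change -0.99, limma adjusted p = 0.0719). The summed intensity of the atrial list was 6578 to 8798 on hSRY-OFF arrays and 1753 to 3258 on hSRY-ON arrays.

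Of the 3 ventricular probes tested, 2 were higher and 1 was lower. Myl2, the ventricular regulatory light chain, read 8.89, 9.29 and 10.04 against 6.29, 7.04 and 7.12 (change -2.59, limma adjusted p = 0.0034). Myl3, the ventricular essential light chain, changed by 1.12 (limma adjusted p = 0.0044), and Myh7, a myosin heavy chain shared with slow skeletal muscle, by 0.98 (limma adjusted p = 0.0087). The ventricular sums of 1415 to 2052 and 1930 to 2655 overlapped between groups. Among the genes of both chambers, 3 probes were higher and 4 lower of 19. The higher ones were probes of Actn2 (1.41), Mybpc3 (0.96) and Ttn (0.89), structural proteins of the sarcomere. The lower ones included both probes of Mb (-1.77 and -1.51), the oxygen-binding protein of muscle. The sums of this list, 6835 to 9338 against 5726 to 7672, overlapped. The part of heart muscle RNA in the Nppa and Nppb values was not tested.

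**Figure D4:**
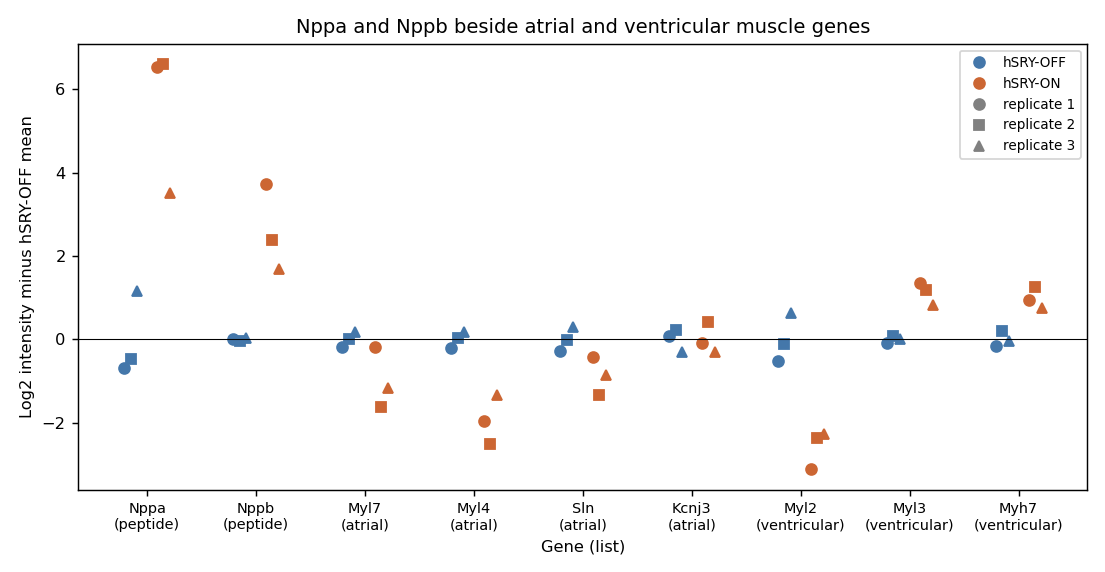
Log2 intensity minus the hSRY-OFF mean of the same probe (vertical axis) for Nppa, Nppb and the tested atrial and ventricular muscle genes (horizontal axis) on the 6 arrays. Blue marks hSRY-OFF, orange hSRY-ON, and shapes are replicates. Nppa and Nppb lay above 0 on all hSRY-ON arrays while Myl4 and Myl2 lay below 0 on all of them.

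Transcription factors known for their part in heart muscle genes were lower where they were called. Of 13 genes, 12 were on the array and 7 were tested with 11 probes. Of these probes 0 were higher and 8, of 4 genes, were lower, where 13.6% of all tested probes were higher and 13.3% lower. The median change was -0.89 (without background correction 1 of 9 called probes was higher). Mef2c, a regulator of muscle genes, was lower with all 3 of its probes, and the largest change was -1.07 (limma adjusted p = 0.0073). Tbx3 was lower by up to -1.05 and Srf by up to -1.03, each with 2 probes, and Tbx2 by -0.75 with 1 probe. Most of these factors are also expressed in lung mesenchyme or endothelium. Nkx2-5 was not detected on any array. Gata4, a known activator of Nppa and Nppb, was detected on 1 hSRY-ON array only, at 5.66, and was not tested. Gata6, named after its values were seen, was detected on all 6 arrays. It read 11.10, 11.17 and 11.13 against 11.58, 11.28 and 11.54 and did not pass (change 0.33, limma adjusted p = 0.0871).

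Epithelial genes were examined for Guca2a. Of 10 airway secretory genes, 9 were on the array and 6 were tested with 9 probes. Of all tested probes 13.6% were higher and 13.3% lower. Of these 9, 6 were higher and 0 lower, with a median change of 1.18. Of the 6, 1 probe of Scgb3a1 was not detected in hSRY-OFF lung and was tested only through the hSRY-ON arrays. Scgb3a1, a secretoglobin of the airway, read 6.12, 6.56 and 6.11 in hSRY-OFF and 9.63, 9.85 and 10.54 in hSRY-ON lung (change 3.75, limma adjusted p = 6e-04). Scgb3a2, another secretoglobin, changed by 1.52 with the higher of its probes (limma adjusted p = 0.0017) and its other probe did not pass. Gabrp, a GABA receptor subunit of epithelia, changed by 1.32 (limma adjusted p = 0.0011). Cyp2f2, an oxidase of club cells, changed by 1.18 (limma adjusted p = 0.0030). Scgb1a1, the defining club cell gene, read between 14.81 and 15.04 on all 6 arrays (change 0.01, limma adjusted p = 0.972). Its raw intensities, 29488 to 33784, were very bright, and whether its signal was near a ceiling was not tested. Tff2, named after its values were seen, read 7.52, 7.26 and 8.20 in hSRY-OFF and 4.92, 6.09 and 9.20 in hSRY-ON lung. It was not detected on hSRY-ON replicate 1 and did not pass (change -0.92, limma adjusted p = 0.517). Without hSRY-ON replicate 3, 5 probes of the list were higher and 1 was lower. The summed intensity of the list was 52823 to 54764 on hSRY-OFF and 65843 to 79068 on hSRY-ON arrays.

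Of the 8 intestinal epithelium genes, 6 were on the array. Vil1, Cdx2, Fabp2 and Cdh17 were not detected on any array. The 3 tested probes of 2 genes gave 1 call, Lgals4, a galectin of gut epithelium, which read 8.11, 8.09 and 8.38 against 9.84, 9.65 and 9.35 (change 1.42, limma adjusted p = 0.0023). The summed intensity of the list was 367 to 496 on hSRY-OFF and 834 to 1193 on hSRY-ON arrays. The Lgals4 probes carried most of this sum, since the other probes of the list lay at or near background on every array. Of the alveolar lists, 0 of 4 type I probes were called, where 26.9% of all tested probes were. Among the type II probes, 3 of 8 were higher, where 13.6% of all tested probes were, and 0 were lower. The part of any of these lists in the Guca2a values was not tested.

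The genes beside the peptide pairs on chromosome 4 were called at a share close to that of all tested probes (26.9%). Of the 4 genes on each side of each pair, 16 in all, 15 were on the array and 8 were tested with 12 probes, of which 2 were higher and 1 was lower. Plod1, which modifies collagen and lies 2 places from Nppa and Nppb, changed by 0.47 (limma adjusted p = 0.0222). Zmynd12 and Scmh1 lie 4 places from Guca2a and Guca2b, on opposite sides. Zmynd12 changed by 1.36 (limma adjusted p = 0.0015) and Scmh1 by -0.49 with its tested probe (limma adjusted p = 0.0403). Directly beside the pairs, 2510039O18Rik and Foxj3 were not called, and Clcn6 and Hivep3 were not tested. These neighbours were named after their values were seen.

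Outside the 9 member genes, those whose pattern over the 6 arrays was most like that of the chosen genes are given as a description. Likeness is the root mean square difference in log2 intensity after each probe was centred on its own mean. For Guca2a the 5 nearest probes were those of Orm1 (0.41), Gdpd2 (0.51), AI593442 (0.59), Cxcl17 (0.78) and BC024561 (0.79). Orm1 encodes an acute-phase plasma protein and Cxcl17 a chemokine of mucosal surfaces. For Nppa they were Chi3l3 (1.11), Orm1 (1.20), LOC100047583 (1.31), Gdpd2 (1.31) and Pdk4 (1.34). Nppa and Guca2a, both chosen for their rise, lay nearer to each other (0.95) than Nppa to any of these. Chi3l3 encodes a chitinase-like protein of macrophages and Pdk4 a kinase that restrains the use of glucose. The Chi3l3 probe read 8.93, 7.65 and 8.92 in hSRY-OFF and 12.67, 13.32 and 10.79 in hSRY-ON lung, and like Nppa it had its lowest hSRY-ON value in replicate 3.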

How the data were processed

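Lung RNA of 3 hSRY-ON and 3 hSRY-OFF mice, grouped by their labels, was measured on 6 Illumina arrays. The authors deposited, for each probe and array, an intensity that was neither background-corrected nor normalized. Beside it the authors deposited a detection p-value, which ranks the probe against the negative controls of its array. The bead summary software is not given in the sources used here. The study used TCC, a count method, so limma 3.58.1 in R 4.3.3 took its place. Background correction (nec) used these p-values to infer the negative controls and an offset of 16, followed by quantile normalization and then the log2 transform. The offset compresses changes of dim probes, and quantile normalization removes any overall shift between groups.

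Probes with detection p under 0.05 on at least 3 of 6 arrays were fitted together (lmFit, eBayes, two-sided, no covariates), with Benjamini-Hochberg adjustment over all 13841. Precision is limited by the number of arrays. Where a probe was undetected in 1 group, the bound sets the mean of the detected group against the higher of the probe's value and the lowest detected value on each array of the other. List sums are of background-corrected, normalized intensities without the offset. No 2 arrays held identical values.

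The genes and all lists were chosen with earlier results of these data known. Named were all members and, for each list, up to 4 called genes with the largest change. A few genes were named whatever their result (Gucy2c, Cftr, Prkg1, Pde5a, Mme, Myl7, Myl4, Myl2, Nkx2-5, Gata4). Also named were the 5 probes of genes other than members nearest in pattern to Nppa and to Guca2a. Lists covered the cGMP pathway, peptide processing, vasoactive peptides, cardiac transcription factors, heart muscle, airway, intestinal, alveolar and endothelial genes. Older symbols were matched through RefSeq synonyms (GRCm38.p6), which also gave gene order, and promoter sequences were those of RefSeq. The pipeline was tested on simulated data. Alternatives were other background corrections, normalizations, filters, variance models and thresholds, a replicate block and leaving out each array.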

Additional observations from a re-analysis of the deposited data

How the results depend on the processing

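The rises of Nppa and Guca2a kept their direction under all 16 alternatives, within 3.72 to 6.55 and 3.29 to 4.95 on the log2 scale. The lowest values, 3.72 for Nppa and 3.29 for Guca2a, came without background correction, and an offset of 50 gave 4.23 for Guca2a. Nppb was tested in 12 alternatives, in all but the fit with no filter only because hSRY-ON arrays detected it, so its adjusted p there (0.0030 to 0.0394, change 0.94 to 2.64) says little about stability, and the other 4 did not test it. Npr3 passed in 14 of 16 (adjusted p from 0.0082 to 0.0614), Corin passed in 1 and Npr1 in 0 of 14. The Npr2 change turned to 0.023 without hSRY-ON replicate 3 and ranged from -0.66 to 0.023 when single arrays were left out. The count of the 7 other members called was 1 in place of 2 when detection on all arrays or an adjusted p under 0.01 was required, and 1 to 2 when single arrays were left out. At an adjusted p under 0.01 the calls were 1326 of all probes, 3 of the cGMP pathway, 0 of peptide processing, 5 of cardiac transcription factors and 4 of heart muscle. Leaving out single arrays gave 1504 to 4384 calls over all probes, 4 to 15 in the cGMP pathway, 0 to 1 in peptide processing and 7 to 15 in heart muscle. Each of these fits had fewer arrays, and the cause of the differences among them was not tested. The labels do not say whether the replicate numbers pair the mice. Same-numbered arrays of both groups had correlations of deviations of -0.11, 0.10 and -0.09. With 3 arrays per group these values cannot exclude a pairing. With a replicate block, 2655 probes in place of 3728 were called, 0 in place of 1 in peptide processing, and Npr3 kept its call (limma adjusted p = 0.0303). The limma adjusted p of Nppb in that fit, 0.0178, again depended on its detection in hSRY-ON lung. Signal over background limits Nppc, Guca2b, Npr1 and the hSRY-OFF values of Nppb.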
